A study of Mus musculus with 14 samples.

Results

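The genes described here are the 5 enzymes of the urea cycle and 5 genes that work beside them in liver cells near the portal vein. They were picked by name, and all 10 were found among the 77981 gene symbols of the count table and among the 13997 genes with enough counts to be tested. Each of the 14 libraries holds the messenger RNA of a mouse liver tumour, sequenced from its 3′ end. Per the labels' protocols, tumours were grown by hydrodynamic injection, which drives plasmid DNA into hepatocytes through the tail vein, of plasmids that carry the mouse genes for c-Myc and β-catenin. They were taken at a diameter of 15 mm, at signs of distress or after 8 weeks. The study asked about the roles of the kinases CDK16 and CDK18 in such tumours.

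The DKO group (n = 4) is labelled as lacking both Cdk16 and Cdk18. The CDK18KO group (n = 5) lacks Cdk18, and the WT group (n = 5) is wild type for both. Per the labels' protocols, Cdk16 was removed after tumours had formed. Animals with floxed Cdk16 (Cdk16 fl/fl) and Cre-ERT2, and Cre-ERT2 controls, received tamoxifen at 75 mg/kg on 5 days in a row, and tumours were collected 10 days after the last dose. The labels used here do not say which of the 3 groups carried Cre-ERT2 or received tamoxifen, nor which promoter drives the Cre. All groups share the injected plasmids, so no library is normal liver. Libraries of a group are described as biological replicates, and each comes from bulk tissue, in which fewer hepatocyte-like cells and less RNA per cell cannot be told apart. Levels are in CPM, read counts scaled to a common library total with TMM factors, and libraries are named by genotype and replicate number.

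The urea cycle turns ammonia from amino acid breakdown into urea. It starts in the mitochondrion, where CPS1 builds carbamoyl phosphate from ammonia, using as its activator the N-acetylglutamate that NAGS makes, and OTC joins it to ornithine to give citrulline. The carrier SLC25A15 brings ornithine in and takes citrulline out, ASS1 and ASL use aspartate, supplied by the carrier SLC25A13 (citrin), to form arginine, and ARG1 splits arginine into urea and ornithine. GLS2, the liver glutaminase, releases ammonia from glutamine, and HAL, histidase, releases it from histidine. In normal mouse liver these genes are strongest around the portal vein, whereas glutamine synthetase (Glul) marks the cells around the central vein. There, β-catenin signalling sustains the perivenous genes and is known to hold down the periportal ones.

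In GRCm38 the members lie at chr1:67123026-67231259 (Cps1, plus strand), chrX:10252305-10321024 (Otc, plus), chr2:31470207-31520672 (Ass1, plus), chr5:130011258-130029247 (Asl, minus) and chr10:24915221-24927484 (Arg1, minus). Nags lies at chr11:102145513-102149477 (plus), Slc25a15 at chr8:22375551-22398597 (minus), Slc25a13 at chr6:6041218-6217173 (minus), Gls2 at chr10:128194457-128210004 (plus) and Hal at chr10:93488768-93519304 (plus). All 10 are protein-coding genes. An antisense gene (Gm11586) overlaps Nags and another coding gene (Spryd4) overlaps Gls2, each on the opposite strand. The library kit keeps the strand, but the sources used here do not give the counting setting, and Nags and Gls2 counts could include reads of those neighbours.

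RefSeq promoter windows, from 250 bases before to 50 bases after a start site in GRCm38.p6, were given for 6 of the 10 members (Otc, Ass1, Nags, Slc25a15, Slc25a13 and Hal). Those of Otc and Nags are shown because these genes had, with Cps1, the largest log2 fold changes against WT, and that of Hal because its level across libraries parted from theirs. Capitals mark letters found on either strand for any of 6 motifs searched, TATA box (TATAAA), C/EBP (TTGCNNAA), CREB (TGACGTNA), FOXA (TGTTTAC), HNF4 (AAAGTCC) and TCF/LEF (CTTTGAT).
Otc, chrX:10252055-10252354, plus strand: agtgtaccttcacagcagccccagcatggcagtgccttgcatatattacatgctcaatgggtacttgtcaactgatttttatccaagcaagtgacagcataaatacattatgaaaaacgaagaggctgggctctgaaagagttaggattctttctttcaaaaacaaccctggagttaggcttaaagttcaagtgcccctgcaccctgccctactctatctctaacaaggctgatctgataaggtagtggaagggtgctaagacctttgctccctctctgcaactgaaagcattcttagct
Nags, chr11:102145263-102145562, plus strand: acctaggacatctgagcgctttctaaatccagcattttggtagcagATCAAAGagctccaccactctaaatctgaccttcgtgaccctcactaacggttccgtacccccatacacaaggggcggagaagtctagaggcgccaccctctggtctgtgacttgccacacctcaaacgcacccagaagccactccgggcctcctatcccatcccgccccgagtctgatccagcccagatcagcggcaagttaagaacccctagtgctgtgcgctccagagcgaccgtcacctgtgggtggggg
Hal, chr10:93488518-93488817, plus strand: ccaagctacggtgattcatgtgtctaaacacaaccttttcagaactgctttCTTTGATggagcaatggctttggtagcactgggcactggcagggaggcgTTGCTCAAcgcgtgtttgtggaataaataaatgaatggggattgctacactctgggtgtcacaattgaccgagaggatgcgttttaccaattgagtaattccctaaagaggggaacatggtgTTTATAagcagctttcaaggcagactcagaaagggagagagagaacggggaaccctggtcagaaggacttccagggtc
The Otc window holds none of these letters. The Nags window holds the TCF/LEF letters on the opposite strand, from -204 to -198 relative to the start. The Hal window holds them at -199 to -193, the C/EBP letters at -150 to -143 and the TATA letters on the opposite strand at -28 to -23. None of these matches overlap. Of 32851 promoters in the table, 13.6% hold the TATA letters, 10.8% the C/EBP letters, 3.73% the TCF/LEF letters, 4.21% the HNF4 letters, 3.65% the FOXA letters and 2.93% the CREB letters. The windows of Ass1, Slc25a15 (with a pair of start sites) and Slc25a13 hold none of the 6. A match is a run of letters and was not tested as a binding site.

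Total counts ran from 1442417 (WT 5) to 6068209 (WT 2). Hepatocyte markers differed widely between libraries: the 15 of 16 listed markers found in the table, none of them at 0 in any group, summed to 2283 to 29085 CPM in DKO, 1604 to 20155 CPM in CDK18KO and 197 to 5206 CPM in WT. Y-linked genes stood above 100 CPM in CDK18KO 1, WT 3 and WT 5 but in none of the DKO libraries, so the groups do not appear matched for sex. They stood at 33.0 CPM in WT 1 and 18.3 CPM in WT 4, and at 0.311 to 7.41 CPM in the other libraries. The sex of WT 1 and WT 4 is not clear from these values. The targeted genes check the labels only in part. Cdk18 ran from 0.563 to 4.00 CPM in DKO, 0.927 to 3.42 CPM in CDK18KO and 1.26 to 10.4 CPM in WT, and Cdk16 from 17.8 to 48.5, 31.0 to 65.8 and 40.0 to 59.2 CPM in the same order. The groups overlapped for each, and neither differed in edgeR's test (adjusted p = 0.338 for Cdk18 and 0.691 for Cdk16 in CDK18KO against WT, and 0.331 and 0.310 in DKO against WT). Whether the counted 3′ ends lie in the deleted parts is not known.

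All 10 genes had a higher fitted level in knockout tumours than in WT tumours, in CDK18KO and in DKO. The spread between tumours of a group was large, and none passed edgeR's test. In edgeR's quasi-likelihood test with Benjamini-Hochberg adjustment over all genes, 0 of 10 were called in CDK18KO against WT and 0 of 10 in DKO against WT, where 0.00714% of all genes were called in each. At an unadjusted p under 0.05, 5 of 10 were higher in CDK18KO (11.6% of all genes) and 7 of 10 in DKO (13.7% of all genes). DESeq2 called 4 higher in CDK18KO (Cps1, Otc, Nags and Slc25a13; 4.32% of all genes) and the same 4 with Slc25a15 in DKO (6.28% of all genes). The median log2 fold change of the 10 was 1.66 in CDK18KO and 2.10 in DKO, against -0.01 and -0.04 for all genes tested. A log2 fold change above 0 was found for 49.4% of all genes in CDK18KO and 47.9% in DKO. These comparisons share the WT libraries. No member separated the groups completely: 0 of 10 had every DKO or every CDK18KO library above every WT library, against 3.04% and 1.1% of all genes.

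Markers of hepatocytes and of other cell types had fitted differences between the genotypes as well. The cholangiocyte, stellate cell and fibroblast, B and plasma cell, erythroid and neutrophil lists were found whole in the table, and 1 of their markers was at 0 throughout a group (Cd79a, in DKO and in CDK18KO). The 15 hepatocyte markers had a log2 fold change above 0 for 13 in CDK18KO against WT (median 2.38) and for 15 in DKO against WT (median 3.03). All 7 cholangiocyte markers were below 0 in CDK18KO (median -2.23), with Krt19 and Epcam below WT without overlap (1.6% of all genes), and 3 of 7 were in DKO. They summed to 147 to 590.2 CPM in DKO, 34.7 to 309 CPM in CDK18KO and 210.2 to 412 CPM in WT. Of the 10 stellate cell and fibroblast markers, 9 were tested, and 9 were below 0 in CDK18KO (median -1.68) and 7 in DKO (median -0.21). In CDK18KO, 2 of these lay below WT without overlap (1.6% of all genes). The list summed to 461 to 1199, 46.6 to 893 and 447 to 1301 CPM in DKO, CDK18KO and WT. In DKO against WT, the 3 of 4 B and plasma cell markers that were tested lay above WT without overlap (median 3.27), with sums of 32.04 to 126 CPM in DKO, 0.991 to 7.77 CPM in CDK18KO and 2.22 to 9.26 CPM in WT. All 5 erythroid markers were above 0 there (median 1.78), with sums of 1718 to 9898, 535 to 1902 and 561 to 2663 CPM in DKO, CDK18KO and WT, as were the 5 of 7 neutrophil markers tested (median 3.49). Of the erythroid and neutrophil markers, 1 and 4 lay above WT without overlap in DKO (3.04% of all genes). EdgeR called none of the markers of these other cell types in either comparison, at an adjusted p under 0.05. At an unadjusted p under 0.05, 4 cholangiocyte and 5 stellate cell and fibroblast markers were lower in CDK18KO, and in DKO 3 B and plasma cell, 5 erythroid and 5 neutrophil markers were higher. At that level, 5.31% of all genes were lower in CDK18KO and 13.7% were higher in DKO. DESeq2 called 3 in each of these lists. It called 1.82% of all genes lower in CDK18KO and 6.28% higher in DKO. The part of other cells in the members' values was not tested.

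**Figure D1:**
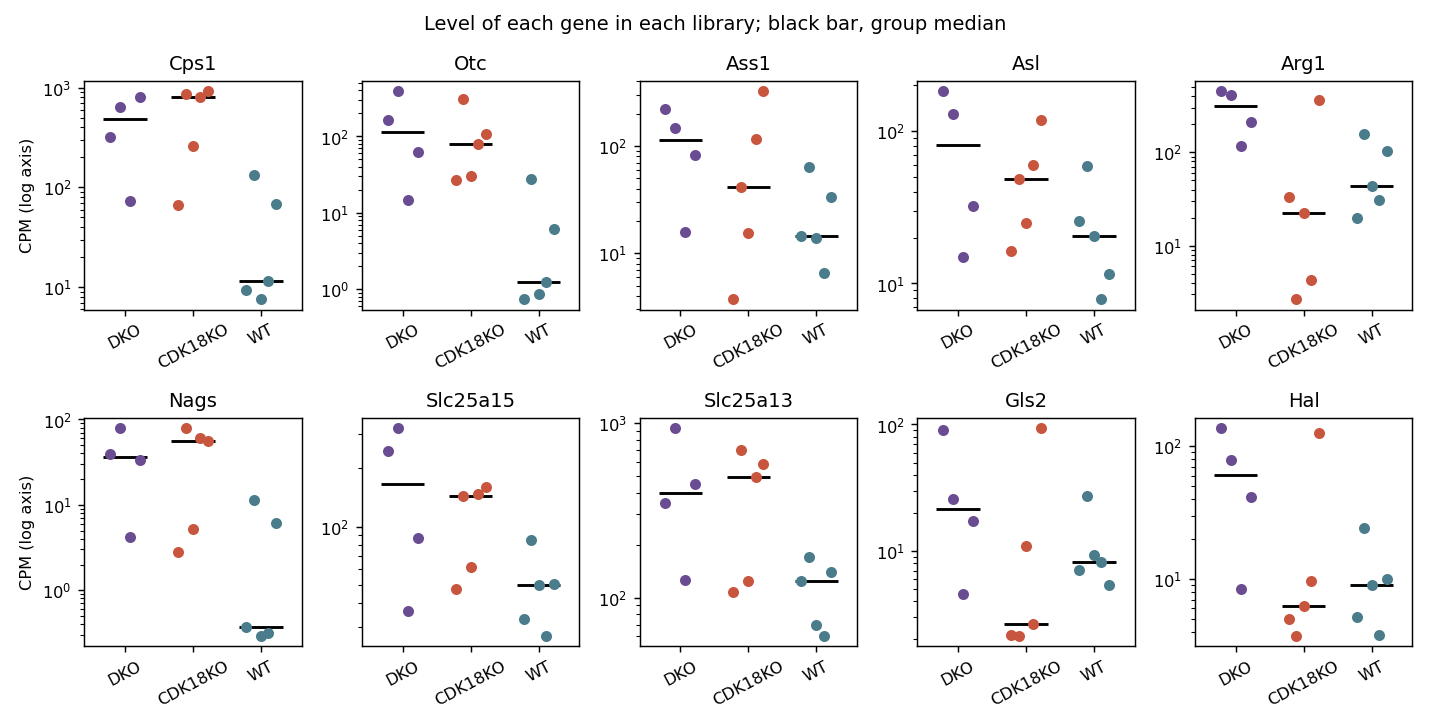
CPM of each of the 10 genes (log axis) in every DKO, CDK18KO and WT library, with a black bar at the group median. In every panel the points of at least 1 knockout library fall among the WT points, and for Arg1, Gls2 and Hal a lone CDK18KO point (replicate 5) stands far above the other 4.

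Cps1, the entry enzyme of the cycle, had 317, 645, 73.1 and 811 CPM in DKO 1 to 4, 66.8, 866, 260.2, 815 and 917 CPM in CDK18KO 1 to 5, and 9.27, 134, 7.57, 11.7 and 67.9 CPM in WT 1 to 5. The 3 highest libraries were CDK18KO 5, 2 and 4, and DKO 3 and CDK18KO 1 fell below WT 2, so the groups overlapped. The means were 461 ± 330.2 CPM in DKO (SD, n = 4), 585 ± 393 CPM in CDK18KO and 46.1 ± 55.3 CPM in WT (SD, n = 5 each). The log2 fold change was 3.66 (edgeR adjusted p = 0.162, SE 0.97) in CDK18KO and 3.32 (edgeR adjusted p = 0.146, SE 0.97) in DKO. DESeq2 gave adjusted p = 0.00306 for CDK18KO and 0.0132 for DKO.

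Otc, an X-linked gene whose enzyme makes citrulline, had 166, 389, 14.6 and 62.2 CPM in DKO 1 to 4, 27.0, 312, 30.4, 80.3 and 108 CPM in CDK18KO 1 to 5, and 0.742, 27.9, 0.873, 1.26 and 6.17 CPM in WT 1 to 5. It spanned the widest range of the 10, with an SD of 2.72 on the log2 CPM scale over the 14 libraries, where the median gene had 0.69. In WT 1, 3 and 4 it rested on 2, 3 and 4 counts, and only WT 2 reached the lowest knockout libraries, DKO 3 and CDK18KO 1. Its log2 fold change was 4.34 (edgeR adjusted p = 0.146, SE 1.18) in DKO and 3.83 (edgeR adjusted p = 0.162, SE 1.13) in CDK18KO. DESeq2 gave adjusted p = 0.00488 and 0.0074, in that order. With 1 library left out, the log2 fold change in DKO ran from 3.36 (without DKO 2) to 6.34 (without WT 2). In CDK18KO it ran from 2.92 (without CDK18KO 2) to 5.84 (without WT 2).

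Nags, which makes the activator of CPS1, had 39.4, 78.9, 4.21 and 33.9 CPM in DKO 1 to 4, 2.80, 79.2, 5.28, 61.4 and 56.1 CPM in CDK18KO 1 to 5, and 0.371, 11.5, 0.291, 0.315 and 6.17 CPM in WT 1 to 5. In WT 1, 3 and 4 each value is 1 count, so folds against those libraries are poorly known. CDK18KO 2 and DKO 2 were highest, and CDK18KO 1, CDK18KO 3 and DKO 3 fell below WT 2. The log2 fold change was 3.40 (edgeR adjusted p = 0.176, SE 1.14) in CDK18KO and 3.33 (edgeR adjusted p = 0.158, SE 1.17) in DKO. DESeq2 gave adjusted p = 0.0263 and 0.0386, in the same order. With 1 library left out, the log2 fold change in CDK18KO ran from 2.97 (without CDK18KO 2) to 4.86 (without WT 2). In DKO it ran from 2.72 (without DKO 2) to 4.80 (without WT 2).

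The mitochondrial carriers differed less. Slc25a13, which exports aspartate for the ASS1 step, had 348, 936, 126 and 446 CPM in DKO 1 to 4, 107, 700.4, 125, 489.9 and 582 CPM in CDK18KO 1 to 5, and 124, 171, 69.9, 60.2 and 139.6 CPM in WT 1 to 5. DKO 2 and CDK18KO 2 were highest, and DKO 3, CDK18KO 1 and CDK18KO 3 lay inside the WT range. Its log2 fold change was 2.04 (edgeR adjusted p = 0.146, SE 0.62) in DKO and 1.83 (edgeR adjusted p = 0.169, SE 0.59) in CDK18KO, and DESeq2 gave adjusted p = 0.027 and 0.0403. Slc25a15, the ornithine carrier, had 245, 323, 36.6 and 87.2 CPM in DKO 1 to 4, 47.5, 144, 61.8, 147 and 159.9 CPM in CDK18KO 1 to 5, and 33.0, 84.9, 49.5, 27.1 and 50.1 CPM in WT 1 to 5. It had the narrowest range of the 10 (SD 1.11 on the log2 CPM scale), and in each knockout group at least 1 library lay inside the WT range. The log2 fold change was 1.82 (edgeR adjusted p = 0.146, SE 0.57) in DKO and 1.19 (edgeR adjusted p = 0.281, SE 0.54) in CDK18KO, and DESeq2 gave adjusted p = 0.0364 and 0.208.

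In the cytosolic arm, Ass1, which joins citrulline to aspartate, had 221, 147, 15.9 and 81.7 CPM in DKO 1 to 4, 3.73, 41.5, 15.5, 117 and 323 CPM in CDK18KO 1 to 5, and 14.5, 63.1, 14.0, 6.62 and 33.2 CPM in WT 1 to 5. CDK18KO 1 was the lowest of all 14 libraries and CDK18KO 5 the highest, so the CDK18KO group alone covered the whole range. Asl, which releases arginine, had 183, 129.6, 14.9 and 32.2 CPM in DKO 1 to 4, 16.5, 48.4, 24.8, 60.4 and 118 CPM in CDK18KO 1 to 5, and 25.6, 58.8, 20.4, 7.88 and 11.6 CPM in WT 1 to 5. DKO 1 and DKO 2 were the 2 highest libraries, and the groups overlapped. The log2 fold changes in DKO were 2.14 (edgeR adjusted p = 0.275, SE 1.02) for Ass1 and 1.84 (edgeR adjusted p = 0.206, SE 0.75) for Asl. In CDK18KO they were 1.92 (edgeR adjusted p = 0.338, SE 0.98) for Ass1 and 1.09 (edgeR adjusted p = 0.460, SE 0.72) for Asl, and DESeq2 called neither gene in either group.

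Arg1, which ends the cycle, had 451, 415, 117 and 210.1 CPM in DKO 1 to 4, 32.9, 2.66, 22.7, 4.29 and 364 CPM in CDK18KO 1 to 5, and 19.7, 158, 44.0, 30.9 and 103 CPM in WT 1 to 5. DKO 1 and 2 and CDK18KO 5 were highest. CDK18KO 2 and 4, which were among the 3 highest libraries for Cps1, were the 2 lowest for Arg1, with 5 and 13 counts. The log2 fold change was 2.07 (edgeR adjusted p = 0.321, SE 1.10) in DKO and 0.26 (edgeR adjusted p = 0.919, SE 1.03) in CDK18KO. The CDK18KO value turned round to -2.17 without CDK18KO 5 and lay just below 0, at -0.018, without WT 1. Arginase 1 is also known from macrophages and, as a granule protein in human, from neutrophils. The 6 macrophage markers summed to 40.1 to 365 CPM in DKO, 33.4 to 105 CPM in CDK18KO and 20.4 to 90.7 CPM in WT, and the 7 neutrophil markers to 368 to 545, 5.28 to 93.1 and 40.8 to 272 CPM, none of them at 0 throughout a group. Their part in the Arg1 values was not tested.

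Gls2 had 90.0, 25.9, 4.53 and 17.2 CPM in DKO 1 to 4, 2.17, 2.13, 10.9, 2.64 and 93.6 CPM in CDK18KO 1 to 5, and 7.05, 27.3, 9.31, 8.19 and 5.40 CPM in WT 1 to 5. Hal had 137, 79.4, 8.42 and 41.7 CPM in DKO 1 to 4, 4.97, 3.72, 6.21, 9.58 and 125 CPM in CDK18KO 1 to 5, and 5.19, 24.2, 9.02, 3.78 and 10.0 CPM in WT 1 to 5. For these nitrogen-releasing enzymes CDK18KO 5 and DKO 1 were the 2 highest libraries, and CDK18KO 1, 2 and 4 lay below every WT library for Gls2. For Hal, CDK18KO 1 to 4 lay between 3.72 and 9.58 CPM, within or just below the WT range. The log2 fold changes in DKO were 1.56 (edgeR adjusted p = 0.450, SE 1.08) for Gls2 and 2.65 (edgeR adjusted p = 0.193, SE 1.05) for Hal. In CDK18KO they were 0.92 (edgeR adjusted p = 0.677, SE 1.03) and 1.49 (edgeR adjusted p = 0.466, SE 0.99), and without CDK18KO 5 they became -1.37 and -0.78. Without DKO 1, the DKO value was 0.43 for Gls2 and 2.02 for Hal.

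In DKO against WT the overlap rested mostly on DKO 3 and WT 2, and in CDK18KO against WT it was broader. DKO 3 lay below WT 2 for all 10 genes, and WT 2 was the highest WT library for all 10. Without DKO 3, 8 of 10 genes (all but Asl and Gls2) had the other 3 DKO libraries above every WT library, against 12.6% of all genes. Without WT 2, 3 genes did so in DKO (Cps1, Otc and Arg1; 6.82% of all genes) and Otc alone did in CDK18KO (4.34% of all genes). Without CDK18KO 1, Cps1 and Otc separated CDK18KO from WT (2.94% of all genes), and leaving out any of the other 8 libraries of that comparison separated 0 genes. Fewer libraries separate more easily, as these shares of all genes show. The hepatocyte markers summed to 2283 CPM in DKO 3, the lowest of its group, to 3261 CPM in CDK18KO 1 and to 5206 CPM in WT 2, the highest of its group. Their part in these overlaps was not tested.

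Between DKO and CDK18KO, edgeR called 0 of 10 genes (0% of all genes), 0 had an unadjusted p under 0.05 (3.94% of all genes were higher at that level) and DESeq2 called 0 (0.574% of all genes were called higher). No member had every DKO library above every CDK18KO library (0.872% of all genes). The median log2 fold change was 0.57, with 8 of 10 above 0 (48.2% of all genes). It ran from -0.34 (edgeR adjusted p = 0.993, SE 0.92) for Cps1 to 1.81 (edgeR adjusted p = 0.966, SE 1.09) for Arg1. Arg1 was higher in every DKO library than in CDK18KO 1 to 4, and CDK18KO 5 lay within the DKO range.

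**Figure D2:**
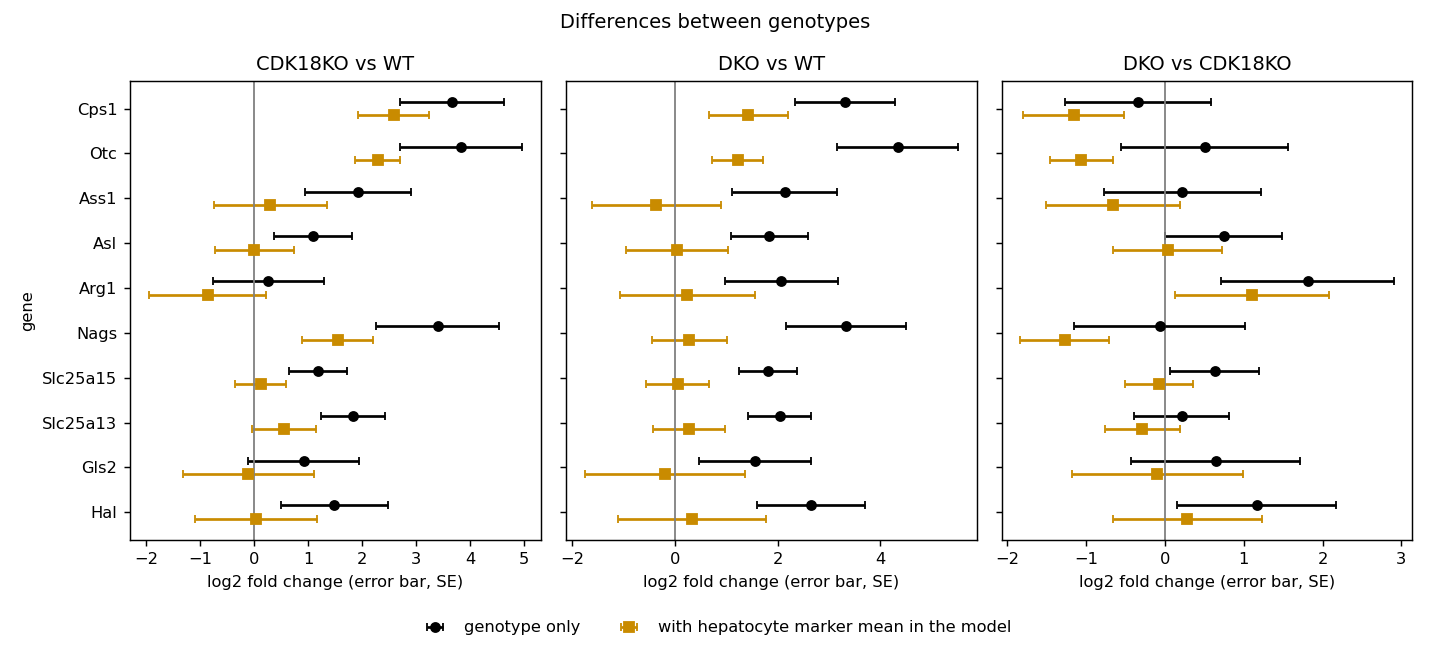
Log2 fold change with its SE for the 10 genes in CDK18KO against WT, DKO against WT and DKO against CDK18KO, from the fit on genotype (black circles) and with the hepatocyte marker mean added (orange squares). All black circles of the WT comparisons lie right of 0, and in CDK18KO against WT the orange squares of Cps1, Otc and Nags lie furthest right, at 2.59, 2.29 and 1.55.

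The members followed the hepatocyte markers of the same library to unequal degrees. These markers were Alb, Ttr, Apoa1, Apob, Apoh, Serpina1a, Serpina1c, Fgb, Fga, Ahsg, Hpx, Rbp4, Cyp2e1, Cyp3a11 and Ttpa. Over the 14 libraries, Pearson's r with the mean log2 CPM of the 15 hepatocyte markers was 0.94 for Otc, 0.92 for Nags, 0.86 for Slc25a15, 0.86 for Cps1 and 0.84 for Slc25a13. It was 0.71 for Asl, 0.70 for Ass1 and 0.62 for Hal, but 0.33 for Arg1 and 0.31 for Gls2. These values describe libraries that share genotype, depth and tumour content. With the marker mean as a covariate in edgeR, the median log2 fold change of the 10 was 0.21 in CDK18KO and 0.25 in DKO, and 0 of 10 genes were called. Cps1 kept 2.59 (SE 0.66, adjusted p = 0.389) and Otc 2.29 (SE 0.42, adjusted p = 0.141) in CDK18KO. In DKO, Cps1 was at 1.43 (SE 0.77) and Otc at 1.23 (SE 0.50), each with adjusted p = 0.9999.

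Set against the hepatocyte mean of its own library, Otc was the gene among the 10 that separated WT from the knockouts. Its log2 CPM less that mean was -2.07, -1.73, -2.65 and -2.34 for DKO 1 to 4, -2.44, -0.93, -0.46, -1.65 and -1.34 for CDK18KO 1 to 5, and -2.74, -3.03, -3.29, -3.78 and -3.84 for WT 1 to 5. Every DKO and every CDK18KO library lay above every WT library, as for 0.0572% of all other genes in each comparison. The gap to DKO was narrow, with -2.65 as the lowest DKO value and -2.74 as the highest WT value, and it rests on WT libraries with few Otc counts. The prior count of 2 used here raises such low values towards the others. Cps1 less the same mean was 1.08 ± 1.45 in CDK18KO and -0.64 ± 0.45 in WT (SD, n = 5 each), and the groups overlapped. Against the same mean, 7 of the 10 genes (Ass1, Asl, Arg1, Slc25a15, Slc25a13, Gls2 and Hal) had a lower mean than WT in DKO and in CDK18KO, all with overlap. The hepatocyte markers had median log2 fold changes of 3.03 in DKO and 2.38 in CDK18KO against WT. A gene without a difference in level therefore tends to fall below WT on this scale. The share of all genes that did so was not computed, so the count says little about the members. Gls2 averaged -4.23 ± 1.08 in DKO, -4.63 ± 2.76 in CDK18KO and -1.91 ± 1.59 in WT (SD, n = 4, 5 and 5). Asl averaged -2.79 ± 0.65 in DKO, -2.15 ± 1.22 in CDK18KO and -0.93 ± 1.85 in WT, and Arg1 -0.65 ± 0.79, -3.16 ± 3.32 and 0.49 ± 0.84 in the same order. No member lay below WT without overlap, against 0.715% of all other genes in CDK18KO and 3.7% in DKO.

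**Figure D3:**
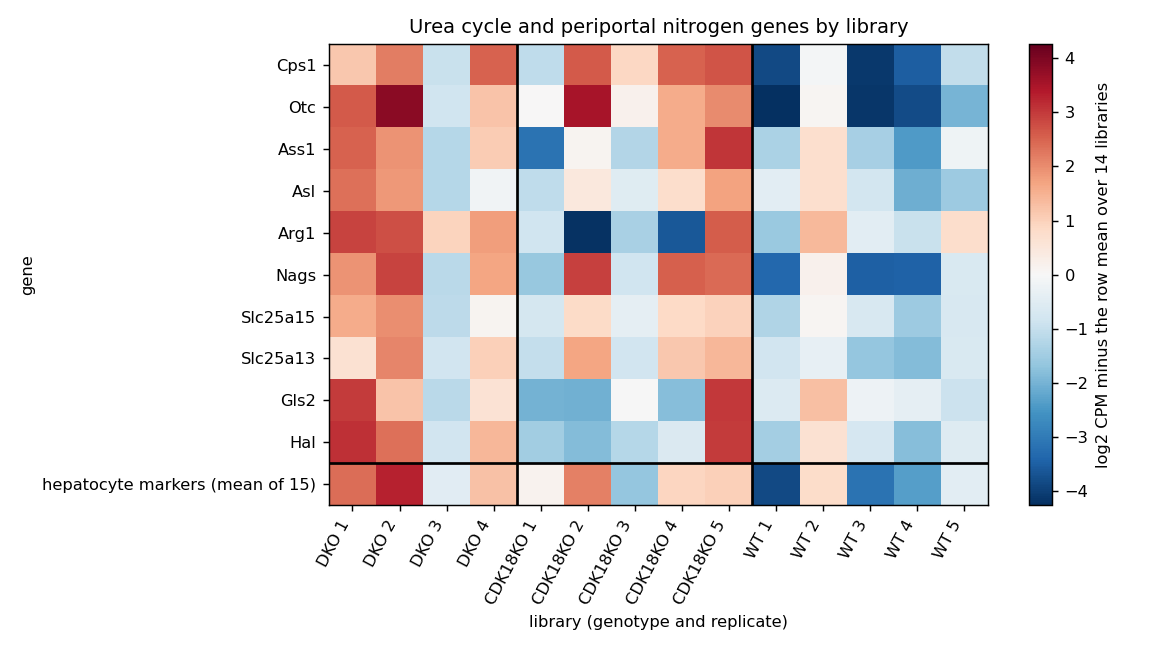
Log2 CPM of each gene less its own mean over the 14 libraries (red higher, blue lower), with libraries in columns by genotype and the mean of 15 hepatocyte markers in the bottom row. CDK18KO 2 and 4 are red for Cps1, Otc, Nags and the carriers and blue for Arg1 and Gls2, while CDK18KO 5, DKO 1 and DKO 2 are red for all 10.

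Among themselves the 10 fell along a gradient. Of 45 pairs, r over the 14 libraries ran from 0.14 (Cps1 with Arg1) to 0.96 (Cps1 with Nags), with a median of 0.76. Arg1, Gls2 and Hal went together, with r of 0.82 for Arg1 with Hal, 0.89 for Gls2 with Hal and 0.80 for Arg1 with Gls2. Otc had r of 0.18 with Arg1, 0.29 with Gls2 and 0.56 with Hal. CDK18KO 5 was among the 3 highest libraries for 8 of the 10 genes, DKO 2 for 8 and DKO 1 for 7. CDK18KO 2 was among the 3 highest for 4 genes and among the 3 lowest for 3, and WT 4 was among the 3 lowest for 8.

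The end of the cycle stood in another proportion to its entry in CDK18KO tumours and in some DKO tumours than in WT tumours. Arg1 counts per 100 Cps1 counts were 142, 64.3, 159.7 and 25.9 for DKO 1 to 4, 49.3, 0.307, 8.71, 0.527 and 39.6 for CDK18KO 1 to 5, and 212, 118, 581, 265 and 152 for WT 1 to 5. Every CDK18KO library lay below every WT library. DKO 2 and 4 did so as well, with DKO 4 inside the CDK18KO range, whereas DKO 1 and 3 lay inside the WT range. Relative to Cps1, 3 of the other 9 members were lower in CDK18KO than in WT without overlap (Arg1, Ass1 and Hal), against 6.8% of all other genes and 0 of 15 hepatocyte markers. In DKO, 0 of 9 were, against 7.9% of all other genes. Over all 45 pairs of members, 8 ratios separated CDK18KO from WT and 5 separated DKO from WT. The share among pairs of all genes was not computed, so whether these counts are unusual is not known. All 5 in DKO had Otc higher relative to another member (Ass1, Asl, Slc25a15, Gls2 and Hal), by 2.24 (Hal) to 3.46 (Gls2) in the mean log2 ratio. Of the 8 in CDK18KO, 4 had Otc higher (relative to Asl, Arg1, Slc25a15 and Gls2), 3 had Cps1 higher and 1 had Arg1 lower relative to Nags. The mean log2 ratio of Cps1 to Arg1 was 5.37 higher in CDK18KO than in WT and 1.48 higher in DKO than in WT. These ratios were picked after the levels were known and carry no test. They compare proportions between libraries, not the amounts of the 2 transcripts.

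**Figure D4:**
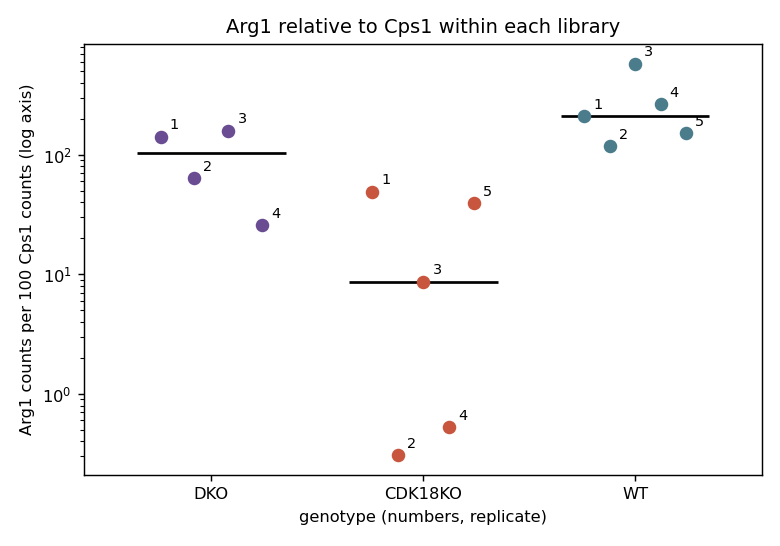
Arg1 counts per 100 Cps1 counts (log axis) in each library, labelled with its replicate number, by genotype, with a black bar at the group median. The 5 CDK18KO libraries run from 0.307 to 49.3 and all lie below the lowest WT library, at 118, while the DKO libraries run from 25.9 to 159.7.

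Markers of the opposite, perivenous zone were given beside these genes. All 12 listed were detected, with none at 0 throughout a group. Cyp2e1 of this list is also among the hepatocyte markers. Glul, Oat, Slc1a2 and Rhbg are also in the list of glutamine and ammonia handling below, so the lists are not separate observations. The 12 summed to 1598 to 13722 CPM in DKO, 818 to 11722 CPM in CDK18KO and 814 to 2229 CPM in WT. A log2 fold change above 0 was found for 9 of 12 in CDK18KO against WT (median 2.26) and for 10 in DKO against WT (median 3.13), where the 10 members had medians of 1.66 and 2.10. EdgeR called 0 of 12 in either comparison. At an unadjusted p under 0.05, 4 and 8 were higher (11.6% and 13.7% of all genes). DESeq2 called 2 and 5 (4.32% and 6.28% of all genes were called higher). Glul, Axin2, Nkd1 and Lgr5 were picked from this list after their values were seen. Glul, glutamine synthetase, had 1473, 4703, 421 and 1832 CPM in DKO 1 to 4, 929.7, 5340.2, 361, 1697 and 371 CPM in CDK18KO 1 to 5, and 234, 803, 220.1, 409 and 649.6 CPM in WT 1 to 5. CDK18KO 2, with the most Glul, had the least Arg1 and the least Gls2. DKO 2, with the next most Glul, had 415 CPM of Arg1 and 25.9 CPM of Gls2, among the 4 highest libraries for each. CDK18KO 5, with the most Gls2, had 371 CPM of Glul. Axin2, a direct β-catenin target, went against most of its list, with log2 fold changes of -0.56 (edgeR adjusted p = 0.638, SE 0.56) in CDK18KO and -0.57 (edgeR adjusted p = 0.622, SE 0.60) in DKO, and had 60.0, 76.1, 227 and 141 CPM in DKO 1 to 4, 235, 110.1, 194, 73.7 and 20.4 CPM in CDK18KO 1 to 5, and 161, 102, 101, 248 and 324 CPM in WT 1 to 5. Axin2 was not alone in this, as 3 of the 12 were below 0 in CDK18KO and 2 in DKO. Nkd1 averaged 182 ± 242 CPM in CDK18KO, 168 ± 168 in DKO and 324 ± 40.8 in WT (SD). Lgr5 averaged 41.6 ± 33.6, 60.2 ± 23.8 and 45.4 ± 16.1 CPM in the same order. The lowest Axin2 values were those of CDK18KO 5 and DKO 1, the 2 libraries with the most Gls2 and Hal. CDK18KO 4, with the next lowest Axin2, had 2.64 CPM of Gls2 and 9.58 CPM of Hal. Pearson's r of Glul over the 14 libraries was 0.82 with Otc, 0.79 with Nags and 0.72 with Cps1, and 0.26 with Hal, -0.04 with Arg1 and -0.06 with Gls2. The part of zonal identity in the differences between members was not tested.

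Other genes of nitrogen metabolism were taken from 6 lists with 60 genes, of which 56 had enough counts. EdgeR called 0 of 56 in CDK18KO against WT and 0 of 56 in DKO against WT, while at an unadjusted p under 0.05 23 were higher and 1 lower in CDK18KO (5.31% of all genes were lower), and 30 were higher and 1 lower in DKO (5.22% of all genes were lower). DESeq2 called 11 higher in CDK18KO, 15 higher in DKO and 0 lower in either (1.82% of all genes in CDK18KO and 1.13% in DKO). The median log2 fold change of the 56 was 1.17 in CDK18KO and 1.63 in DKO. Of all genes, 11.6% in CDK18KO and 13.7% in DKO were higher at an unadjusted p under 0.05. DESeq2 called 4.32% and 6.28% of all genes higher, in the same order. The shares of all genes given here also apply to the lists below. The 4 genes not tested were Arg2, the mitochondrial arginase, and the carriers Slc25a2 and Slc25a18, with 7 to 26 counts over all libraries, and Car5a, with 339. Car5a, the mitochondrial carbonic anhydrase that supplies bicarbonate to CPS1, had 62.3, 29.9, 1.62 and 0 CPM in DKO 1 to 4, 0.621, 10.6, 0.621, 2.31 and 2.78 CPM in CDK18KO 1 to 5, and 0.742, 1.92, 1.75, 0.945 and 0.771 CPM in WT 1 to 5. DKO 1 and 2 held most of its counts (218 and 53), whereas DKO 4 had 0, which with 3 counts as the limit allows up to 1.67 CPM.

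Most genes that feed amino nitrogen into the cycle also had fitted levels above WT. Of 8 genes of nitrogen supply that were tested, 7 had a log2 fold change above 0 in CDK18KO and 8 in DKO, and DESeq2 called 3 and 1. Gpt, alanine aminotransferase, averaged 103 ± 93.5 CPM in DKO, 76.9 ± 84.8 in CDK18KO and 8.53 ± 5.50 in WT, with log2 fold changes of 3.14 (SE 0.88) in CDK18KO and 3.56 (SE 0.92) in DKO (DESeq2 adjusted p = 0.00763 and 0.00488). Glud1, glutamate dehydrogenase, had 1.76 (SE 0.54) in CDK18KO and 1.68 (SE 0.56) in DKO, the mitochondrial aminotransferase Gpt2 had 1.54 (SE 0.65) in CDK18KO and 1.97 (SE 0.68) in DKO and the glutamate carrier Slc25a22 had 1.54 (SE 0.40) in CDK18KO and 1.09 (SE 0.42) in DKO. Of 10 genes of glutamine and ammonia handling, 7 and 8 were above 0, and DESeq2 called 1 and 4. Oat, ornithine aminotransferase, averaged 692 ± 846 CPM in DKO, 246 ± 282 in CDK18KO and 85.4 ± 64.9 in WT, with log2 fold changes of 1.54 (SE 0.82) in CDK18KO and 3.03 (SE 0.89) in DKO (DESeq2 adjusted p = 0.263 and 0.0158). Glul had 1.91 (SE 0.77) in CDK18KO and 2.19 (SE 0.80) in DKO, the arginine transporter Slc7a2 1.43 (SE 0.54) in CDK18KO and 1.78 (SE 0.57) in DKO and the glutamine transporter Slc38a3 1.49 (SE 0.97) in CDK18KO and 2.82 (SE 1.04) in DKO.

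The 3 enzymes that follow HAL in histidine breakdown had log2 fold changes above 0 in CDK18KO and in DKO against WT. Amdhd1, imidazolonepropionase, which follows urocanase, averaged 26.5 ± 21.3 CPM in DKO, 28.3 ± 22.1 in CDK18KO and 2.12 ± 3.10 in WT, with log2 fold changes of 3.56 (SE 1.09) in CDK18KO and 3.46 (SE 1.12) in DKO (DESeq2 adjusted p = 0.0147 and 0.0246). Uroc1, urocanase, which takes the product of HAL, averaged 40.7 ± 42.8 CPM in DKO, 7.70 ± 5.66 in CDK18KO and 3.60 ± 5.95 in WT, with 0.95 (SE 1.01) in CDK18KO and 3.38 (SE 1.09) in DKO (DESeq2 adjusted p = 0.607 and 0.0253). Ftcd, which ends the pathway, had 0.77 (SE 1.21) in CDK18KO and 2.26 (SE 1.29) in DKO. In DKO against CDK18KO, Uroc1 had 2.42 (edgeR adjusted p = 0.797, SE 1.05) and Amdhd1 -0.10 (edgeR adjusted p = 0.998, SE 1.03), and neither gene passed the threshold.

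Of 16 genes for the breakdown of other amino acids, 15 were above 0 in CDK18KO and all 16 in DKO, and DESeq2 called 3 and 7. Hgd, which opens the ring of homogentisate from tyrosine, averaged 139 ± 148 CPM in DKO, 84.4 ± 80.1 in CDK18KO and 7.82 ± 11.5 in WT, with log2 fold changes of 3.36 (SE 1.17) in CDK18KO and 4.08 (SE 1.23) in DKO (DESeq2 adjusted p = 0.0256 and 0.0119). Tat, tyrosine aminotransferase, averaged 146 ± 112 CPM in DKO, 25.0 ± 22.6 in CDK18KO and 14.2 ± 22.3 in WT, with 0.88 (SE 1.03) in CDK18KO and 3.43 (SE 1.12) in DKO (DESeq2 adjusted p = 0.691 and 0.0268). Hpd, the enzyme between them, had 3.06 (SE 1.29) in CDK18KO and 4.47 (SE 1.39) in DKO, Amt of the glycine cleavage system had 1.89 (SE 0.53) in CDK18KO and 1.92 (SE 0.55) in DKO, and Prodh, proline dehydrogenase, had 1.66 (SE 0.58) in CDK18KO and 1.58 (SE 0.60) in DKO.

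Genes that spend nitrogen on growth were split in CDK18KO and mostly below WT in DKO, with none called. Of 9 genes for pyrimidines, polyamines, proline and asparagine, 5 were below 0 in CDK18KO and 7 in DKO. EdgeR and DESeq2 called 0 of 9 in either comparison, and 1 was lower at an unadjusted p under 0.05 in each, with a median log2 fold change of -0.17 and -0.46. Spermine synthase, Sms, averaged 41.4 ± 20.6 CPM in DKO, 45.9 ± 18.3 in CDK18KO and 88.9 ± 26.4 in WT, with log2 fold changes of -0.95 (SE 0.36) in CDK18KO and -1.10 (SE 0.39) in DKO. Odc1, which starts polyamine synthesis from ornithine, had -0.42 (SE 0.43) in CDK18KO and -0.78 (SE 0.46) in DKO, Asns, asparagine synthetase, had 0.29 (SE 0.32) in CDK18KO and 0.44 (SE 0.34) in DKO, and Pycr1 and Aldh18a1, which make proline, had -1.01 (SE 0.91) in CDK18KO and -1.32 (SE 0.98) in DKO and 0.66 (SE 0.39) in CDK18KO and -0.38 (SE 0.42) in DKO, in that order.

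All 10 regulators known for this pathway in liver had log2 fold changes above 0 in each comparison with WT, with medians of 1.21 in CDK18KO and 1.63 in DKO. EdgeR called 0 of 10. At an unadjusted p under 0.05, 7 and 6 were higher (11.6% and 13.7% of all genes). DESeq2 called 3 and 1 (4.32% and 6.28% of all genes were called higher). Gcgr, the glucagon receptor, averaged 48.5 ± 41.8 CPM in DKO, 32.5 ± 25.6 in CDK18KO and 3.66 ± 6.00 in WT, with log2 fold changes of 3.01 (SE 1.10) in CDK18KO and 3.59 (SE 1.15) in DKO (DESeq2 adjusted p = 0.0452 and 0.0219). Cebpa, a liver transcription factor needed for Cps1 expression in mouse, had 2.23 (SE 0.77) in CDK18KO and 2.20 (SE 0.79) in DKO, its relative Cebpb had 1.24 (SE 0.63) in CDK18KO and 1.95 (SE 0.67) in DKO and Creb3l3 (CREB-H) had 3.30 (SE 1.12) in CDK18KO and 2.96 (SE 1.14) in DKO.

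**Figure D5:**
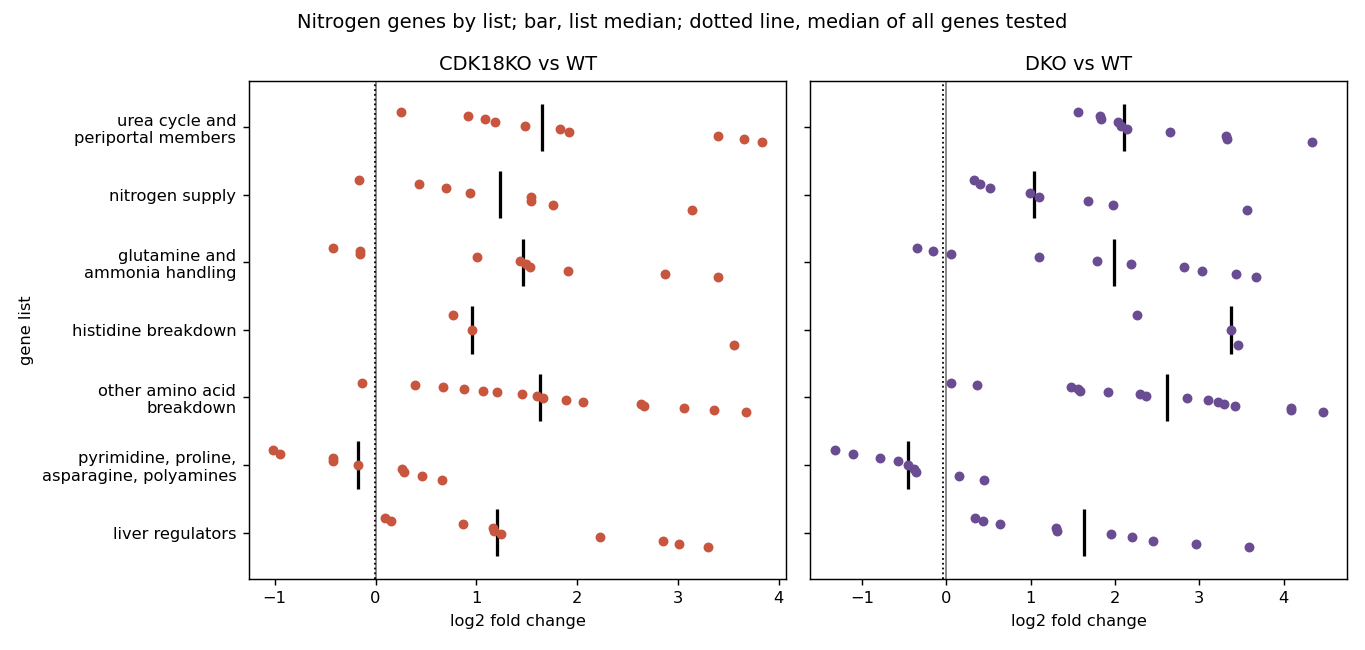
Log2 fold change of each tested gene in CDK18KO against WT and DKO against WT, by list, with a black bar at the list median and a dotted line at the median of all genes tested. The medians lie right of 0 for every list but the genes for pyrimidines, proline, asparagine and polyamines, at -0.17 and -0.46.

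Outside these lists, the 5 genes whose pattern was most like the mean of the 10 standardized members over the 14 libraries were BC024386 (r = 0.96), Gnmt (0.96), Slc37a4 (0.95), Gm15318 (0.95) and Fggy (0.95). Gnmt, glycine N-methyltransferase, averaged 341 ± 257 CPM in DKO, 171 ± 153 in CDK18KO and 41.7 ± 47.5 in WT. Slc37a4, the glucose 6-phosphate transporter of the endoplasmic reticulum, averaged 96.6 ± 64.2 CPM in DKO, 69.7 ± 47.8 in CDK18KO and 26.8 ± 13.8 in WT. Fggy, a carbohydrate kinase, averaged 53.4 ± 33.1 CPM in DKO, 32.4 ± 21.9 in CDK18KO and 11.7 ± 8.24 in WT. BC024386 averaged 15.8 ± 16.4 CPM in DKO, 5.74 ± 5.04 in CDK18KO and 1.83 ± 2.80 in WT, with a lowest WT value of 0. Gm15318 averaged 5.09 ± 3.96, 3.45 ± 3.94 and 0.192 ± 0.430 CPM in the same order, with a lowest value of 0 in every group. The r of BC024386 and Gm15318 rests in part on libraries near 0, where the prior count of 2 weighs on log2 CPM. Errors are SD over 4 DKO and 5 CDK18KO or WT libraries.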

How the data were processed

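RNA of 14 liver tumours was sequenced with a 3′ poly(A)-primed kit from 300.0 ng of RNA with 6-base molecular identifiers, as single reads of 151 bases, per the labels. The authors deposited whole-number read counts per gene symbol for 77981 symbols. Per the submitters' processing notes, the authors used STAR 2.7.11a with FastQC, HTSeq 1.99.2, UMI-tools 1.1.2 and DESeq2 1.32.0. The notes name mm10 and GRCh38 without saying which was used for what. The sources used here do not say whether reads sharing an identifier were collapsed, and the values are read as read counts.

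The test was edgeR 4.0.16 (R 4.3.3), quasi-likelihood F, two-sided, on the deposited counts, with TMM factors and a single fit to all 14 libraries. P values were adjusted by Benjamini-Hochberg across the 13997 genes that passed edgeR's filter, with 99.0% of counts, and the threshold was an adjusted p of 0.05. Log2 CPM used a prior count of 2. DESeq2 1.42.0 was an alternative; the others are given with their effect in the closing section. The pipeline was tested on simulated counts. Libraries were compared in pairs within groups, and none repeated another. Per-sample columns left unused numbered 0.

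Members were matched by symbol. The members and lists were chosen with earlier results of these data known. All members are named, and from each other pathway list the up to 4 genes with the smallest p in DKO against WT and up to 2 in CDK18KO against WT. Other genes named were chosen after their values were seen. The 5 genes of like pattern were those with the largest r. Positions are from GENCODE M21 (GRCm38) and promoters from RefSeq (GRCm38.p6).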

Additional observations from a re-analysis of the deposited data

Results flagged for a closer look

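Of 30 groups of libraries checked for a lone extreme value, each member in each genotype, 6 held a library whose gap to the nearest other exceeded Dixon's limit. That limit passes about 1 in 20 groups by chance for normally distributed values, a rate that need not hold for CPM, and the 30 are not independent because members vary together. On the log2 CPM scale 1 of the 6 stayed past the limit (Hal in CDK18KO 5, with a gap of 0.748 of the range). In 3 of the 6, CDK18KO 5 was the library: Arg1 stood at 364 CPM there, with the next CDK18KO library at 32.9 CPM, Gls2 at 93.6 CPM with the next at 10.9 CPM, and Hal at 125 CPM with the next at 9.58 CPM. Otc stood at 312 CPM in CDK18KO 2, with the next of its group at 108 CPM. In WT 2, Otc stood at 27.9 CPM, with the next WT library at 6.17 CPM, and Gls2 at 27.3 CPM, with the next at 9.31 CPM. None of the DKO groups held such a value.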

How the results depend on the processing

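The number of calls depended strongly on the method. The log2 fold changes of Cps1, Otc, Nags and the carriers against WT stayed above 0 in every alternative fit, but some came near 0. With the hepatocyte mean as a covariate, Slc25a15, Slc25a13 and Nags were at 0.12, 0.55 and 1.55 in CDK18KO and at 0.049, 0.27 and 0.28 in DKO. Set against the hepatocyte mean of each library, the carriers averaged below WT in DKO and in CDK18KO. A gene without a difference in level would tend to do so too, as the hepatocyte markers had median log2 fold changes above 0 in each. Of 750 repeats over the 10 members, 3 comparisons and all alternatives, 699 kept their direction and stayed uncalled, 19 kept it and were newly called, and 32 changed direction, of which 22 were between DKO and CDK18KO. In CDK18KO against WT, edgeR called 1 gene of all tested (C1rb, a complement gene that is no member, named after its value was seen). DESeq2 called 856, no filter on low counts 173, the hepatocyte mean as a covariate 3, and 0 were called with a robust fit, a Y-linked covariate, only the 2 groups compared or without the 3 libraries high in Y-linked genes. Leaving out 1 library gave 0 to 74, with 74 without CDK18KO 1. In DKO against WT, C1rb was again the 1 call. DESeq2 called 1033, no filter 252, the hepatocyte covariate 2, and 0 were called with the Y-linked covariate, the 2 groups alone or without the high-Y libraries, and 0 to 1 with 1 library left out. In DKO against CDK18KO, DESeq2 called 84, no filter 42, and leaving out 1 library 0 to 2. Members called exceeded 0 only with DESeq2 (4 in CDK18KO and 5 in DKO), no filter (1 and 2) and the replicate block, among the alternatives run, and were 0 in DKO against CDK18KO throughout. Members not overlapping, checked with each library left out after the data were seen, numbered 0 to 2 in CDK18KO against WT, 0 to 8 in DKO against WT and 0 to 1 in DKO against CDK18KO, where the 1 was Arg1 without CDK18KO 5 (1.48% of all genes). The hepatocyte covariate moved the members' median to 0.21 in CDK18KO and 0.25 in DKO against WT, and to -0.19 in DKO against CDK18KO, where it had been 0.57. The cause was not tested.

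The groups share replicate numbers, and whether these pair the libraries is not known. Same-numbered libraries deviated together with r of -0.23 to 0.65. In 3 of 13 pairs the library correlated best with its own number, each time replicate 2 (r of 0.30, 0.45 and 0.58). The r of 0.65 was that of replicate 3 in DKO and CDK18KO. With a replicate block, 297 genes and 3 members (Cps1, Otc and Nags) were called in CDK18KO against WT, and 438 genes and 4 members (the same and Slc25a13) in DKO against WT. Under the block, Arg1 (-1.16) and Gls2 (-0.56) changed direction in CDK18KO against WT, and Cps1 (0.040) and Nags (0.55) in DKO against CDK18KO.

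Other log2 fold changes that changed direction were, with the hepatocyte covariate, Arg1 (-0.86) and Gls2 (-0.11) in CDK18KO against WT, Ass1 (-0.36) and Gls2 (-0.20) in DKO against WT, and Otc (-1.06), Ass1 (-0.66), Slc25a15 (-0.075), Slc25a13 (-0.29) and Gls2 (-0.095) in DKO against CDK18KO. Without the high-Y libraries, Ass1 (-0.092) and Slc25a13 (-0.047) did so in DKO against CDK18KO. With 1 library left out, values in CDK18KO against WT ran over -2.17 to 0.79 for Arg1, -1.37 to 1.54 for Gls2 and -0.78 to 2.10 for Hal. In DKO against CDK18KO they ran over -0.78 to 0.0014 for Cps1, -0.41 to 1.33 for Otc, -0.30 to 1.39 for Ass1, -0.63 to 0.30 for Nags, -0.37 to 0.50 for Slc25a13 and -0.49 to 2.93 for Gls2.

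Depth limits the low values: Otc rested on 2 to 4 counts and Nags on 1 count in WT 1, 3 and 4.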

Other observations

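Other genes known from periportal hepatocytes were mostly higher in DKO tumours than in WT tumours and went both ways in CDK18KO tumours, with none called by edgeR. Their sum, over 9 of 10 in the table and none at 0 throughout a group, was 229 to 3170.4 CPM in DKO, 249 to 1423 CPM in CDK18KO and 50.8 to 671 CPM in WT. Of the 9 tested, 9 had a log2 fold change above 0 in DKO against WT (median 2.37) and 5 in CDK18KO against WT (median 0.67). EdgeR called 0 in either, and DESeq2 called 4 and 1 (6.28% and 4.32% of all genes were called higher). At an unadjusted p under 0.05, 5 and 3 were higher (13.7% and 11.6% of all genes). In DKO against CDK18KO, 6 of 9 were above 0 and 3 below, from -0.91 for Etnppl to 5.22 for Pck1, with a median of 0.65. Sds and Gldc of this list are also in the list for the breakdown of other amino acids.

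Pck1 and Cyp2f2 were chosen after their values were seen, as the 2 of the 9 that did not overlap between DKO and CDK18KO. Pck1, the gluconeogenic enzyme PEPCK, had 747, 554, 43.7 and 44.5 CPM in DKO 1 to 4, 19.3, 7.45, 2.79, 5.62 and 11.1 CPM in CDK18KO 1 to 5, and 4.82, 99.9, 7.28, 12.9 and 47.1 CPM in WT 1 to 5. All DKO libraries lay above all CDK18KO libraries, as for 0.872% of all genes, and WT 2 and WT 5 lay in or above the lower DKO range. In DKO against CDK18KO its log2 fold change was 5.22 (edgeR adjusted p = 0.194, SE 1.10), and DESeq2 gave adjusted p = 4.55e-05. Cyp2f2, a periportal cytochrome P450, had 41.7, 13.0, 8.74 and 4.45 CPM in DKO 1 to 4, 4.04, 1.06, 0.621, 0 and 0.463 CPM in CDK18KO 1 to 5, and 8.53, 6.18, 7.86, 0.630 and 0 CPM in WT 1 to 5. DKO again lay above CDK18KO without overlap, at 3.71 (edgeR adjusted p = 0.418, SE 1.07) on the log2 scale, with a DESeq2 adjusted p = 0.0556. CDK18KO 5, with high Arg1, Gls2 and Hal, had 1 count of Cyp2f2.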
